A study of Mus musculus with 24 samples.

Results

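Genes that encode surface markers of adipose precursor cells, 10 in number, were followed by RNA-seq in mouse cells that differed in the transcription factor NFIA. The 10 members were taken by symbol from the 24825 genes listed. The rule uses no measured value, but it was set with earlier results of these data known. They are the PDGF receptor genes Pdgfra and Pdgfrb, the Notch-related gene Dlk1, the surface antigens Ly6a, Cd34, Thy1 and Cd24a, and the progenitor subset markers Dpp4, Pi16 and Icam1. The cells were stromal vascular fraction cells of inguinal white fat from Nfia flox/flox mice (exon 2 floxed, on a C57BL/6 background), made immortal with SV40 large T antigen, which all groups carry. The 4 cell types compared had 3 libraries of each at day 0 and at day 7 of adipocyte differentiation, which made 24 libraries. The ctrl cells had received an empty retroviral vector and the Cre cells a vector for Cre recombinase. The Cre + NFIA cells carried Cre with a full-length, FLAG-tagged NFIA, and the Cre + NFIA Δpro#3 cells carried Cre and a tagged NFIA without a proline-rich C-terminal segment. Differentiation began at confluence with isobutylmethylxanthine, indomethacin, dexamethasone, insulin, T3 and rosiglitazone, of which insulin, T3 and rosiglitazone were then continued. Age and sex of the mice, and whether replicates were separate infections or cultures, are not given in the sources used here, so p-values measure only the spread between these libraries.

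Adipocytes arise from mesenchymal precursors that lie in the stroma and along the vessels of fat. Precursors are commonly isolated by antibodies to proteins such as PDGFRα, SCA-1 (the product of Ly6a), CD34 and CD24. PDGFRα and PDGFRβ are receptor tyrosine kinases that bind platelet-derived growth factors, and both are used to mark fibroblast-like cells. DLK1, or Pref-1, is a transmembrane protein of preadipocytes whose soluble form restrains adipogenesis. DPP4 and PI16 mark interstitial progenitors and ICAM1 marks committed preadipocytes in mouse subcutaneous fat. During adipogenesis cells lose many of these proteins as they gain lipid droplet proteins and adipokines.

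Levels are FPKM, the fragments of a gene per kilobase and per 1000000 fragments counted, and libraries held 7.73 to 14.62 M reads in total (M, 1000000). A gene passed the test at a limma adjusted p under 0.05 over the 12640 genes tested, and changes are log2 differences on the log2(FPKM + 1) scale, which understates the changes of weakly expressed genes. Ratios named as ratios of mean FPKM have no pseudocount. Gene-level Nfia at day 0 read 6.23, 6.75 and 6.43 FPKM for the ctrl libraries and 6.81, 5.34 and 6.49 FPKM for those labelled Cre, and at day 7 it read 9.15 to 9.81 FPKM in ctrl and 9.49 to 10.7 FPKM in Cre. The groups overlapped at both days, so gene-level Nfia does not check the Cre label. Directions given for Cre therefore rest on the label. Nfia was at 59.7 to 74.9 FPKM in the libraries with a transgene at day 0, which were all above the others.

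The day 0 cells were checked against the members themselves and against markers of other cells. The members' summed level was 2038 to 2382 FPKM in the 12 day 0 libraries, most of it Ly6a, and 9 of the 10 members were detected above the count of 3 reads taken as the floor in every library. Dpp4 was the exception. The 5 fibroblast markers summed to 1357 to 3003 FPKM at day 0, nearly all of it from the collagen genes Col1a1, Col1a2 and Col3a1, so these values do not set precursors apart from fibroblasts. The mature adipocyte list, 10 genes that include Adipoq and Plin1, summed to 20.1 to 33.4 FPKM at day 0. Sums over all libraries reached at most 10.2 FPKM for 6 endothelial markers, 11.3 for 7 leukocyte markers, 8.78 for 5 mesothelial markers and 17.1 for 5 pericyte markers. Pecam1, Cdh5, Ptprc, Itgam, Upk3b, Msln and Rgs5 were below 1 FPKM in all 24 libraries, and Adgre1 and Kcnj8 were at 0. Other genes of these lists were detected. The highest group means at day 0 were 6.65 FPKM for Tek (ctrl), 3.52 for Kdr (Cre + NFIA), and 7.02 for Cd68 and 3.23 for Csf1r (Δpro#3). Those of Krt19, Cspg4 and Notch3 came at day 7, at 7.465 (Δpro#3), 1.51 (Cre + NFIA) and 16.0 FPKM (Cre).

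**Figure D1:**
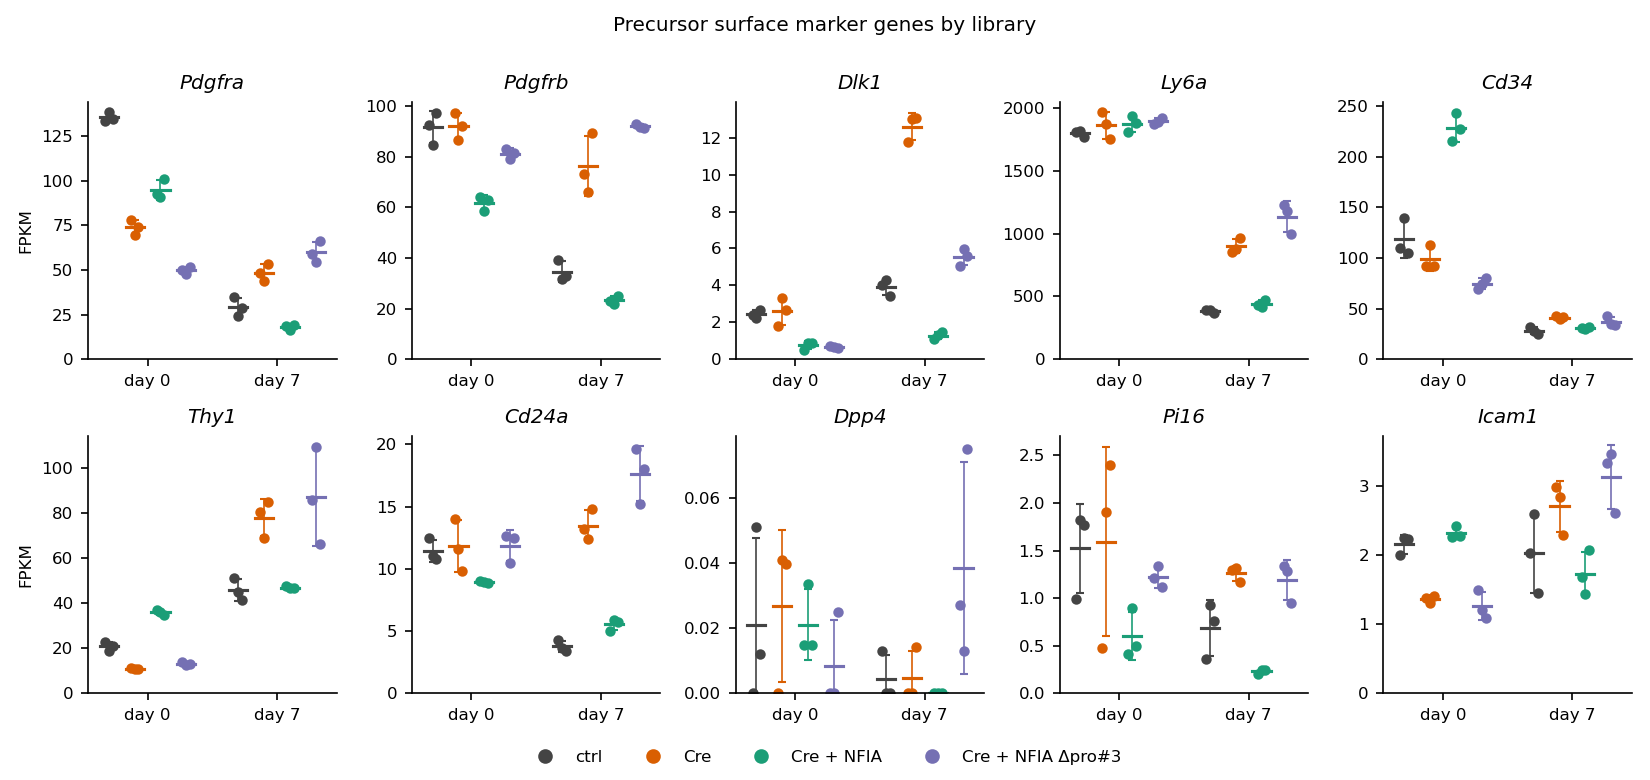
Level of each of the 10 members in FPKM (vertical axes, linear and starting at 0) in the 4 cell types at day 0 and day 7. Points are single libraries, horizontal bars are means and error bars are 1 SD (n = 3). Ly6a sits between 1753 and 1968 FPKM in all day 0 libraries and separates the cell types at day 7, whereas Cd34 and Thy1 separate Cre + NFIA from the rest at day 0.

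Pdgfra (chromosome 5, 75548316 to 75594229, plus strand, NCBIM37, the assembly named mm9) was highest in ctrl at day 0 and lowest in Cre + NFIA at day 7. The day 0 values were 134, 138 and 135 FPKM in ctrl, 78.0, 69.9 and 74.4 in Cre, 92.5, 91.0 and 101 in Cre + NFIA and 50.00, 48.1 and 51.8 in Cre + NFIA Δpro#3. None of these 4 groups overlapped. In Cre it was lower than in ctrl (log2 change -0.86, SE 0.052, limma adjusted p = 2.75e-05), a ratio of mean FPKM of 0.546. Full-length NFIA was accompanied by a higher level than in Cre (log2 change 0.35, SE 0.052, limma adjusted p = 0.000595) and the Δpro#3 form by a lower one (log2 change -0.56, SE 0.052, limma adjusted p = 8.29e-05). The level with full-length NFIA was still below ctrl (log2 change -0.51, SE 0.052, limma adjusted p = 4.49e-05). After differentiation the values were 34.6, 24.1 and 28.7 FPKM in ctrl, 48.3, 43.7 and 53.5 in Cre, 18.5, 16.3 and 19.2 in Cre + NFIA and 58.9, 54.5 and 66.3 in Cre + NFIA Δpro#3. The order of ctrl and Cre had thus turned, and Cre was higher (log2 change 0.72, SE 0.12, limma adjusted p = 0.000303). Cre + NFIA was lower than Cre (log2 change -1.38, SE 0.12, limma adjusted p = 1.37e-06). For Δpro#3 against Cre the groups did not overlap, but the difference missed the threshold (log2 change 0.30, 95% interval 0.034 to 0.57, limma adjusted p = 0.116).

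Pdgfrb (chromosome 18, plus strand), the partner receptor, did not follow Pdgfra at day 0. Its day 0 values were 92.7, 84.8 and 97.4 FPKM in ctrl, 97.3, 86.8 and 92.0 in Cre, 64.1, 58.4 and 62.7 in Cre + NFIA and 83.2, 79.0 and 81.6 in Cre + NFIA Δpro#3. The ctrl and Cre groups overlapped (log2 change 0.0064, 95% interval -0.13 to 0.14, limma adjusted p = 0.969), and Cre + NFIA lay below all others (log2 change -0.57, SE 0.060, limma adjusted p = 5.61e-05 against Cre). For day 7 the Pdgfrb values were 39.4, 31.6 and 32.7 FPKM in ctrl, 73.2, 66.2 and 89.4 in Cre, 23.0, 21.7 and 25.1 in Cre + NFIA and 93.1, 91.9 and 91.4 in Cre + NFIA Δpro#3. Its level in Cre was 2.21 times that in ctrl by mean FPKM (log2 change 1.11, SE 0.11, limma adjusted p = 4.25e-06). The level in Cre + NFIA was 0.305 times that in Cre (log2 change -1.66, SE 0.11, limma adjusted p = 1.1e-07). Over all 8 groups the 3 highest, Δpro#3 at day 7 and Cre and ctrl at day 0, overlapped with each other.

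The ratio of the receptor transcripts within a library is free of the library total. It is not free of the gene lengths used for FPKM, 8610 bases for Pdgfra and 5413 for Pdgfrb. Whether it lies above or below 1 depends on these lengths, unlike its relative differences between groups. At day 0 the Pdgfra to Pdgfrb ratio of FPKM was 1.44, 1.63 and 1.38 in ctrl, 0.802, 0.806 and 0.808 in Cre, 1.44, 1.56 and 1.61 in Cre + NFIA and 0.601, 0.609 and 0.636 in Cre + NFIA Δpro#3. In FPKM, Pdgfra thus exceeded Pdgfrb in every ctrl and Cre + NFIA library at day 0 and in no Cre or Δpro#3 library. By reads, Pdgfra was above Pdgfrb in each Cre library of day 0 too (6822 against 5350, 4657 against 3632 and 5116 against 3978). At day 7 the ratios were 0.880, 0.763 and 0.879 in ctrl, 0.659, 0.660 and 0.598 in Cre, 0.805, 0.752 and 0.767 in Cre + NFIA and 0.633, 0.593 and 0.726 in Cre + NFIA Δpro#3. They were below 1 in all 12 libraries of that day, and Cre overlapped with Δpro#3, as did ctrl with Cre + NFIA, while these pairs stayed apart. No test was made on the ratios.

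**Figure D2:**
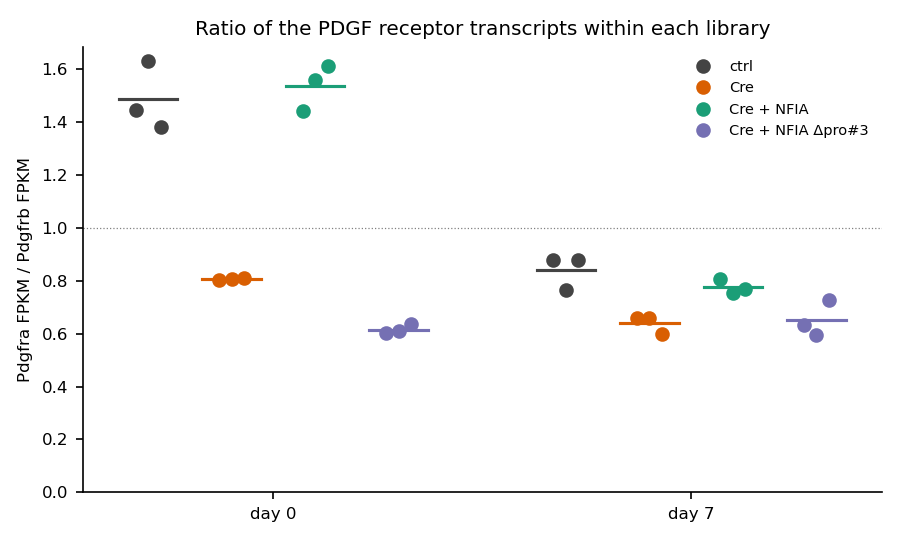
Ratio of Pdgfra FPKM to Pdgfrb FPKM within each library (vertical axis, linear, no unit) for the 4 cell types at day 0 and day 7. Points are single libraries, bars are group means and the dotted line marks a ratio of 1. Where the ratios lie relative to this line depends on the gene lengths used for FPKM. At day 0 ctrl and Cre + NFIA lie above the line, at 1.38 to 1.63, and Cre and Δpro#3 lie below it, at 0.601 to 0.808.

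Dlk1 (chromosome 12, 110691033 to 110701546, plus strand) was low at day 0 and had the widest range of the 9 members tested, a ratio of 19.3 between the highest and the lowest group mean. The day 0 values were 2.40, 2.24 and 2.68 FPKM in ctrl, 1.82, 3.33 and 2.68 in Cre, 0.507, 0.903 and 0.873 in Cre + NFIA and 0.700, 0.643 and 0.618 in Cre + NFIA Δpro#3. Both NFIA forms lay below ctrl and Cre without overlap, on 26 to 45 reads a library. The change against Cre was -1.02 (SE 0.14, limma adjusted p = 0.000427) with the full-length form and -1.10 (SE 0.14, limma adjusted p = 6e-04) with Δpro#3. The forms overlapped with each other (log2 change -0.083, 95% interval -0.40 to 0.24, limma adjusted p = 0.814). The day 7 values were 4.01, 4.30 and 3.42 FPKM in ctrl, 11.8, 13.0 and 13.0 in Cre, 1.08, 1.30 and 1.45 in Cre + NFIA and 5.06, 5.98 and 5.60 in Cre + NFIA Δpro#3, and none of these groups overlapped. By mean FPKM, Cre was at 3.23 times ctrl (log2 change 1.47, SE 0.093, limma adjusted p = 4.98e-07) and Cre was at 9.86 times Cre + NFIA (log2 change -2.58, SE 0.093, limma adjusted p = 3.32e-09 for Cre + NFIA against Cre). Of the tested members, Dlk1 alone passed as lower in Δpro#3 than in Cre at day 7, at 0.440 times the mean FPKM (log2 change -1.06, SE 0.093, limma adjusted p = 0.000146). That level was still above Cre + NFIA (log2 change 1.52, SE 0.093, limma adjusted p = 4.11e-08).

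Ly6a (chromosome 15, 74825308 to 74828064, minus strand) was the most abundant member and ranked 4 to 6 of 24825 genes by mean FPKM in the day 0 groups. The day 0 values were 1811, 1820.1 and 1772 FPKM in ctrl, 1968, 1873 and 1753 in Cre, 1812, 1939 and 1880.3 in Cre + NFIA and 1874, 1894 and 1925 in Cre + NFIA Δpro#3. None of the 5 tested differences between cell types passed at day 0, and the interval of Cre + NFIA against Cre was -0.11 to 0.13 (log2, limma, 95%). The day 7 values were 391, 396 and 370.3 FPKM in ctrl, 858, 878 and 964 in Cre, 429, 413 and 473 in Cre + NFIA and 1229.9, 1182 and 995 in Cre + NFIA Δpro#3. These groups did not overlap with each other. Cre was at 2.33 times ctrl by mean FPKM (log2 change 1.22, SE 0.086, limma adjusted p = 8.19e-07). Cre + NFIA was lower than Cre (log2 change -1.04, SE 0.086, limma adjusted p = 8.72e-07), and its difference from ctrl missed the threshold (log2 change 0.18, 95% interval -0.0071 to 0.37, limma adjusted p = 0.174). Δpro#3 was above Cre (log2 change 0.33, SE 0.086, limma adjusted p = 0.0212), a call that was lost with quantile normalization or with a model of the compared groups alone.

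Cd34 (chromosome 1, 196765015 to 196787486, plus strand), a sialomucin of stem and progenitor cells, showed, after Thy1, the largest rise of Cre + NFIA over Cre among the members at day 0. Its day 0 values were 110.0, 140.0 and 105 FPKM in ctrl, 92.4, 113 and 92.0 in Cre, 215, 244 and 228 in Cre + NFIA and 69.6, 74.5 and 80.2 in Cre + NFIA Δpro#3. Cre + NFIA lay above all others, at 2.31 times Cre by mean FPKM (log2 change 1.21, SE 0.11, limma adjusted p = 2.3e-05) and 1.93 times ctrl (log2 change 0.95, SE 0.11, limma adjusted p = 0.00011). Δpro#3 lay below all others, with a smaller change against Cre (log2 change -0.40, SE 0.11, limma adjusted p = 0.0321), a call lost with no filter on low values. After differentiation the values were 31.6, 28.2 and 25.1 FPKM in ctrl, 42.7, 39.4 and 41.5 in Cre, 30.6, 29.97 and 32.3 in Cre + NFIA and 42.7, 34.9 and 34.0 in Cre + NFIA Δpro#3. Cre was now above ctrl (log2 change 0.53, SE 0.092, limma adjusted p = 0.000375) and Cre + NFIA was below Cre (log2 change -0.40, SE 0.092, limma adjusted p = 0.00239). Cre overlapped with Δpro#3, as did ctrl with Cre + NFIA.

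Thy1 (chromosome 9, 43851467 to 43856662, plus strand), the GPI-anchored stromal antigen CD90, was the only member of the 9 tested that rose over differentiation by over 1 on the log2 scale in ctrl. The day 0 values were 22.6, 19.0 and 21.0 FPKM in ctrl, 11.2, 11.03 and 10.7 in Cre, 36.9, 36.3 and 34.8 in Cre + NFIA and 14.0, 12.6 and 13.1 in Cre + NFIA Δpro#3, and no groups overlapped. Cre was at 0.526 times ctrl by mean FPKM (log2 change -0.87, SE 0.064, limma adjusted p = 9.91e-05) and Cre + NFIA at 3.28 times Cre (log2 change 1.63, SE 0.064, limma adjusted p = 6.95e-08). Δpro#3 was slightly above Cre (log2 change 0.245, SE 0.064, limma adjusted p = 0.0222), a call lost with all 24 libraries in the model or with voom on recovered reads. After differentiation the values were 51.0, 45.0 and 41.3 FPKM in ctrl, 80.3, 68.8 and 84.6 in Cre, 47.5, 46.5 and 46.7 in Cre + NFIA and 85.6, 109 and 66.1 in Cre + NFIA Δpro#3. Cre and Δpro#3 overlapped and both lay above ctrl and Cre + NFIA, which overlapped too. Cre was higher than ctrl (log2 change 0.75, SE 0.15, limma adjusted p = 0.000826) and Cre + NFIA was lower than Cre (log2 change -0.71, SE 0.15, limma adjusted p = 0.00105).

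Cd24a (chromosome 10, 43298975 to 43304068, plus strand), a mucin-like GPI-anchored antigen of early progenitors, separated the cell types mainly at day 7. The day 0 values were 12.5, 11.01 and 10.8 FPKM in ctrl, 14.0, 11.6 and 9.86 in Cre, 9.04, 8.92 and 8.89 in Cre + NFIA and 12.7, 10.4 and 12.5 in Cre + NFIA Δpro#3, and only Cre + NFIA stood apart, below the rest (log2 change -0.35, SE 0.11, limma adjusted p = 0.0375 against Cre). That call was lost with no filter on low values or with a model of the compared groups alone. The day 7 values were 4.26, 3.67 and 3.39 FPKM in ctrl, 13.2, 12.4 and 14.8 in Cre, 5.04, 5.88 and 5.76 in Cre + NFIA and 19.6, 15.2 and 18.1 in Cre + NFIA Δpro#3. No groups overlapped. Cre was at 3.57 times ctrl by mean FPKM (log2 change 1.60, SE 0.10, limma adjusted p = 5.43e-07), the largest log2 change of Cre against ctrl among the members. Cre + NFIA was lower than Cre (log2 change -1.14, SE 0.10, limma adjusted p = 1.61e-06) but above ctrl (log2 change 0.46, SE 0.10, limma adjusted p = 0.0101). Δpro#3 was above Cre (log2 change 0.36, SE 0.10, limma adjusted p = 0.0311), which was lost under the same alternatives as the day 0 call. Reads that aligned to more than 1 place were discarded, so copies of the Cd24a sequence elsewhere in the genome can lower its level.

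Pi16 and Icam1 were near the limit of the depth, and Dpp4 was below it. Pi16 (chromosome 17, 29455822 to 29466358, plus strand) had 6 to 52 reads a library. Its day 0 values were 0.988, 1.82 and 1.77 FPKM in ctrl, 0.482, 1.90 and 2.40 in Cre, 0.418, 0.897 and 0.499 in Cre + NFIA and 1.21, 1.34 and 1.12 in Cre + NFIA Δpro#3, and no tested difference of that day passed. The day 7 values were 0.363, 0.934 and 0.757 FPKM in ctrl, 1.30, 1.31 and 1.17 in Cre, 0.199, 0.2501 and 0.244 in Cre + NFIA and 1.34, 1.29 and 0.948 in Cre + NFIA Δpro#3. Cre was higher than ctrl (log2 change 0.44, SE 0.13, limma adjusted p = 0.0131), a call lost with quantile normalization or with all 24 libraries in the model. Cre + NFIA lay below all others, with 6, 7 and 8 reads (log2 change -0.88, SE 0.13, limma adjusted p = 0.000106 against Cre). Against ctrl it was lower as well (log2 change -0.44, SE 0.13, limma adjusted p = 0.04), a call lost with a pseudocount of 5, the compared groups alone, all 24 libraries or the replicate block. Icam1 (chromosome 9, 20820404 to 20833241, plus strand) had 26 to 108 reads. Its day 0 values were 1.996, 2.24 and 2.22 FPKM in ctrl, 1.37, 1.30 and 1.41 in Cre, 2.26, 2.43 and 2.28 in Cre + NFIA and 1.49, 1.20 and 1.09 in Cre + NFIA Δpro#3. Cre was lower than ctrl (log2 change -0.42, SE 0.077, limma adjusted p = 0.0196), a call lost with a model of the compared groups alone, with all 24 libraries or with voom on recovered reads. Cre + NFIA was higher than Cre (log2 change 0.49, SE 0.077, limma adjusted p = 0.000848), and Δpro#3 overlapped with Cre. After differentiation Icam1 was at 2.02, 2.59 and 1.46 FPKM in ctrl, 2.98, 2.84 and 2.28 in Cre, 1.68, 1.43 and 2.07 in Cre + NFIA and 3.33, 3.46 and 2.60 in Cre + NFIA Δpro#3, with Cre and ctrl overlapping and Cre + NFIA below Cre (log2 change -0.44, SE 0.15, limma adjusted p = 0.0208), a call lost with median-of-ratios size factors or quantile normalization. Dpp4 (chromosome 2, 62168130 to 62250288, minus strand) had 0 to 6 reads in any library and was not tested. Only 2 libraries, 1 of ctrl at day 0 with 4 reads and 1 of Δpro#3 at day 7 with 6 reads, were above the floor of 3 reads.

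Promoters were at hand for 6 of the 10 members in the RefSeq table of GRCm38.p6, and the 250 bases before the start were searched for NFI sites on both strands. The sequence TTGGCA was in 0 of the 6 and in 12.3% of the 32851 promoters listed, and the full palindromic NFI site, TTGGC and its reverse complement 5 bases apart, was in 0 of the 6 and in 0.04% of all. The shorter core TTGGC, which TTGGCA contains, was in 1 of the 6, that of Cd34, and in 41.5% of all promoters. The core was added after the first searches had been seen. The 4 promoters shown belong to the members with an entry that differed between Cre + NFIA and Cre at day 0, and capitals mark the core, on the minus strand, starting 73 bases before the start of Cd34. An absent match says only that these letters are not in this window.
Pdgfra, chr5:75152001-75152250, plus strand: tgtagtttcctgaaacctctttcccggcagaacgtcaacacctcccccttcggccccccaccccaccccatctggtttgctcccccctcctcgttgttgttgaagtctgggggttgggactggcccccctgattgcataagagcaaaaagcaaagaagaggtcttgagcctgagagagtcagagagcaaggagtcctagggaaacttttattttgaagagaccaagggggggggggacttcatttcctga
Dlk1, chr12:109452573-109452822, plus strand: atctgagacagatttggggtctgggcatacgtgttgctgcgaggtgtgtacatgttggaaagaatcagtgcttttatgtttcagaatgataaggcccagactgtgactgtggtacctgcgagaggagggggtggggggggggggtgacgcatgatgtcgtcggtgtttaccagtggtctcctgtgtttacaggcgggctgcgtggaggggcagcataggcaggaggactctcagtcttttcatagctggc
Cd34, chr1:194938571-194938820, plus strand: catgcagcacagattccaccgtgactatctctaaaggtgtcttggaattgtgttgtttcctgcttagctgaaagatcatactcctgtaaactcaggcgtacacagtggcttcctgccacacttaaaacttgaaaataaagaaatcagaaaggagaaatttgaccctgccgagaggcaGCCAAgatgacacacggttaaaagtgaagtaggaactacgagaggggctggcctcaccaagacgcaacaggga
Icam1, chr9:21015690-21015939, plus strand: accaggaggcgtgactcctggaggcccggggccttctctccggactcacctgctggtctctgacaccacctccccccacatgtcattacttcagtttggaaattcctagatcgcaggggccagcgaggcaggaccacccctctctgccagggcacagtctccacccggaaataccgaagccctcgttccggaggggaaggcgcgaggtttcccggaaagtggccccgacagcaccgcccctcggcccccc

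In cells before differentiation the members did not move as a block. Of the 9 tested, 3 passed in Cre against ctrl at day 0, all lower (Pdgfra, Thy1 and Icam1), where 1.63% of all genes passed as higher and 1.70% as lower. Adding full-length NFIA to Cre gave 4 higher members (Pdgfra, Cd34, Thy1 and Icam1) and 3 lower members (Pdgfrb, Dlk1 and Cd24a) relative to Cre, against 14.7% and 12.9% of all genes. In Δpro#3 against Cre 1 was higher (Thy1) and 3 lower (Pdgfra, Dlk1 and Cd34), against 9.26% and 9.02%. These comparisons share the Cre libraries. Δpro#3 against full-length NFIA had 1 member higher (Pdgfrb) and 4 lower (Pdgfra, Cd34, Thy1 and Icam1), beside 4.50% and 5.59% of all genes. Set against ctrl, the Cre + NFIA cells had 2 members higher (Cd34 and Thy1) and 3 lower (Pdgfra, Pdgfrb and Dlk1), beside 18.8% and 14.3%. Of all calls in Cre against ctrl, 48.9% were higher genes, which became 37.4% under quantile normalization. Day 0 calls lost when 1 library was left out (named by cell type and replicate) were, in Cre against ctrl, Icam1 (without ctrl 2, ctrl 3, Cre 2 or Cre 3, limma adjusted p up to 0.0634). In Cre + NFIA against Cre this was Cd24a (without Cre 1, Cre 2, Cre + NFIA 1, Cre + NFIA 2 or Cre + NFIA 3, limma adjusted p up to 0.113). For Δpro#3 against Cre these were Cd34 (without Cre 2, Δpro#3 1 or Δpro#3 2, limma adjusted p up to 0.114) and Thy1 (without Cre 2, Cre 3, Δpro#3 1 or Δpro#3 3, limma adjusted p up to 0.0903).

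At day 7 the tested members were, with 1 exception, higher in Cre than in ctrl, and each was lower in Cre + NFIA than in Cre. In Cre against ctrl 8 of the 9 tested were higher and 0 lower, where 36.1% of all genes were higher and 22.7% lower. Icam1 did not pass (log2 change 0.30, 95% interval -0.020 to 0.63, limma adjusted p = 0.0977). Relative to Cre, Cre + NFIA had 0 members higher and 9 lower, against 27.0% and 35.9% of all genes. Both comparisons use the same Cre libraries. In Δpro#3 against full-length NFIA 9 were higher and 0 lower, against 40.4% and 28.9%. Δpro#3 against Cre gave 2 members higher (Ly6a and Cd24a) and 1 lower (Dlk1), beside 7.70% and 10.0% of all genes. Set against ctrl, Cre + NFIA had 1 member higher (Cd24a) and 4 lower (Pdgfra, Pdgfrb, Dlk1 and Pi16), beside 8.81% and 9.15%. Calls of this day that 1 left-out library ended were, in Cre + NFIA against Cre, Icam1 (without Cre 1, Cre 2, Cre + NFIA 1 or Cre + NFIA 2, limma adjusted p up to 0.0814). In Δpro#3 against Cre they were Ly6a (without Cre 1, Cre 2, Δpro#3 1 or Δpro#3 2, limma adjusted p up to 0.0941) and Cd24a (without Cre 1, Cre 2, Δpro#3 1 or Δpro#3 3, limma adjusted p up to 0.132). In Δpro#3 against Cre + NFIA it was Cd34 (without Cre + NFIA 1, Cre + NFIA 2 or Δpro#3 1, limma adjusted p up to 0.136), and in Cre + NFIA against ctrl Pi16 (without ctrl 2, ctrl 3, Cre 1, Cre + NFIA 1, Cre + NFIA 2 or Cre + NFIA 3, limma adjusted p up to 0.13).

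The summed adipocyte list differed in the other direction at day 7. It was at 5442 to 6410 FPKM in ctrl, 1134 to 2347 in Cre, 5409 to 5727 in Cre + NFIA and 206 to 531 in Δpro#3. Of its 10 genes 9 were tested, and all 9 were lower in Cre than in ctrl, higher in Cre + NFIA than in Cre and lower in Δpro#3 than in Cre. Sums of other markers differed at day 7 too. The 5 fibroblast markers summed to 1142 to 1248 FPKM in ctrl, 1709 to 1984 in Cre, 681 to 789.5 in Cre + NFIA and 1847 to 2184 in Δpro#3, and the 5 pericyte markers to 10.8 to 11.1, 16.5 to 17.1, 8.12 to 8.94 and 13.6 to 16.8 FPKM in the same order. The genes within these lists did not share 1 pattern. Most of the pericyte sum was Notch3, at mean levels of 9.79, 16.0, 6.80 and 14.5 FPKM, whereas Cspg4 was at 0.924, 0.221, 1.51 and 0.174 FPKM and Abcc9 had at most 1 read in any library. Of the fibroblast genes, Col1a1 was at mean levels of 408 FPKM in ctrl and 829.5 in Cre and Col3a1 at 458 and 472, while Dcn was at 21.9 and 12.1 and Lum at 0.865 and 0.197. The part of these markers in the members' differences was not tested, and in bulk libraries fewer cells of a type and less RNA per cell cannot be told apart. With median-of-ratios size factors the median of all genes in Cre against ctrl at day 7 moved by -0.10 (log2) and the share of higher genes among calls went from 61.4% to 47.1%. The 8 members still passed there, each in the higher direction, and 7 passed under quantile normalization, where Pi16 was lost. For Cre + NFIA and Cre that share went from 43.0% to 53.1%, and 8 members passed, all lower, with Icam1 lost. For Δpro#3 against full-length NFIA the share went from 58.3% to 49.2%, and 8 members passed, all higher, with Cd34 lost (limma adjusted p = 0.218), a call also lost with no filter on low values.

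**Figure D3:**
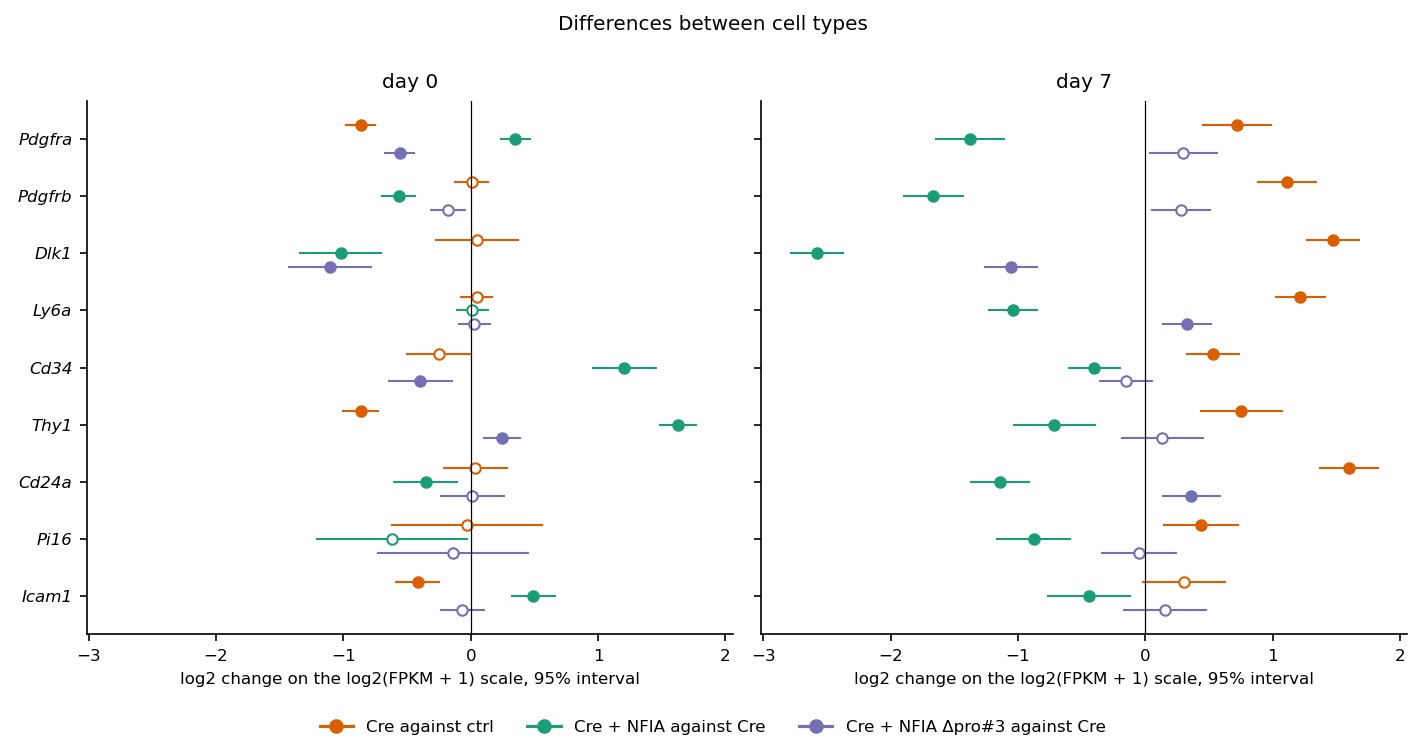
Log2 change of the 9 tested members on the log2(FPKM + 1) scale (horizontal axes) between cell types at day 0 (left) and day 7 (right). Lines are 95% intervals from limma, filled circles passed at an adjusted p under 0.05 and open circles did not. At day 7 the Cre against ctrl values run from 0.30 to 1.60 and those of Cre + NFIA against Cre from -2.58 to -0.40, while at day 0 members lie on both sides of 0.

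Over differentiation 6 of the 9 tested members fell in ctrl cells, Dlk1 and Thy1 rose, and Icam1 did not pass (log2 change -0.078, 95% interval -0.33 to 0.18, limma adjusted p = 0.584). These 2 rises and 6 falls stood beside 32.9% and 38.1% of all genes. The falls were largest for Ly6a (log2 change -2.22, SE 0.070, limma adjusted p = 3.19e-16), Pdgfra (log2 change -2.19, SE 0.099, limma adjusted p = 4.1e-14) and Cd34 (log2 change -2.02, SE 0.11, limma adjusted p = 4.3e-13). In Cre + NFIA 2 were higher (Dlk1 and Thy1) and 6 lower (Pdgfra, Pdgfrb, Ly6a, Cd34, Cd24a and Icam1), beside 31.8% and 38.3%, with Cd34 falling most (log2 change -2.85, SE 0.11, limma adjusted p = 2.28e-15). In Cre cells 3 were higher (Dlk1, Thy1 and Icam1) and 4 lower (Pdgfra, Pdgfrb, Ly6a and Cd34), beside 30.0% and 21.6%. In Δpro#3 cells 5 were higher (Pdgfra, Dlk1, Thy1, Cd24a and Icam1) and 2 lower (Ly6a and Cd34), beside 24.5% and 17.0%. Pdgfra fell in ctrl, Cre and Cre + NFIA but rose slightly in Δpro#3 (log2 change 0.254, SE 0.099, limma adjusted p = 0.045), a call lost with no filter, with median-of-ratios size factors or without the trend. The share of higher genes among all calls went from 58.1% to 43.2% in Cre and from 59.1% to 48.0% in Δpro#3 under quantile normalization. Among the changes between days, those lost with 1 library left out were Pi16 (without ctrl 2 of day 0, ctrl 3 of day 0 or ctrl 1 of day 7, limma adjusted p up to 0.107) in ctrl and Pdgfrb (without Cre 1 of day 0 or Cre 2 of day 7, limma adjusted p up to 0.107) in Cre. They were Dlk1 (without Cre + NFIA 1 of day 0 or Cre + NFIA 3 of day 7, limma adjusted p up to 0.0799) and Icam1 (without Cre + NFIA 1 of day 0, Cre + NFIA 2 of day 0, Cre + NFIA 3 of day 0, Cre + NFIA 1 of day 7 or Cre + NFIA 2 of day 7, limma adjusted p up to 0.174) in Cre + NFIA, and Pdgfra (kept in 11 of 24 such fits, limma adjusted p up to 0.213) in Δpro#3. With median-of-ratios size factors Icam1 in Cre + NFIA was lost too (limma adjusted p = 0.0999).

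Thy1 rose in every cell type, but to unlike degrees. Its ratio of mean FPKM at day 7 to that at day 0 was 2.19 in ctrl, 7.09 in Cre, 1.30 in Cre + NFIA and 6.59 in Δpro#3. Dlk1 rose in every cell type too, by ratios of 1.60, 4.83, 1.68 and 8.48 in the same order. Ly6a and Cd34 fell in all 4. The Ly6a ratios were 0.214, 0.483, 0.234 and 0.599 and those of Cd34 were 0.239, 0.416, 0.135 and 0.498. Cd24a moved in both directions, falling in ctrl (log2 change -1.38, SE 0.11, limma adjusted p = 3.94e-10) and rising in Δpro#3 (log2 change 0.53, SE 0.11, limma adjusted p = 0.000553).

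**Figure D4:**
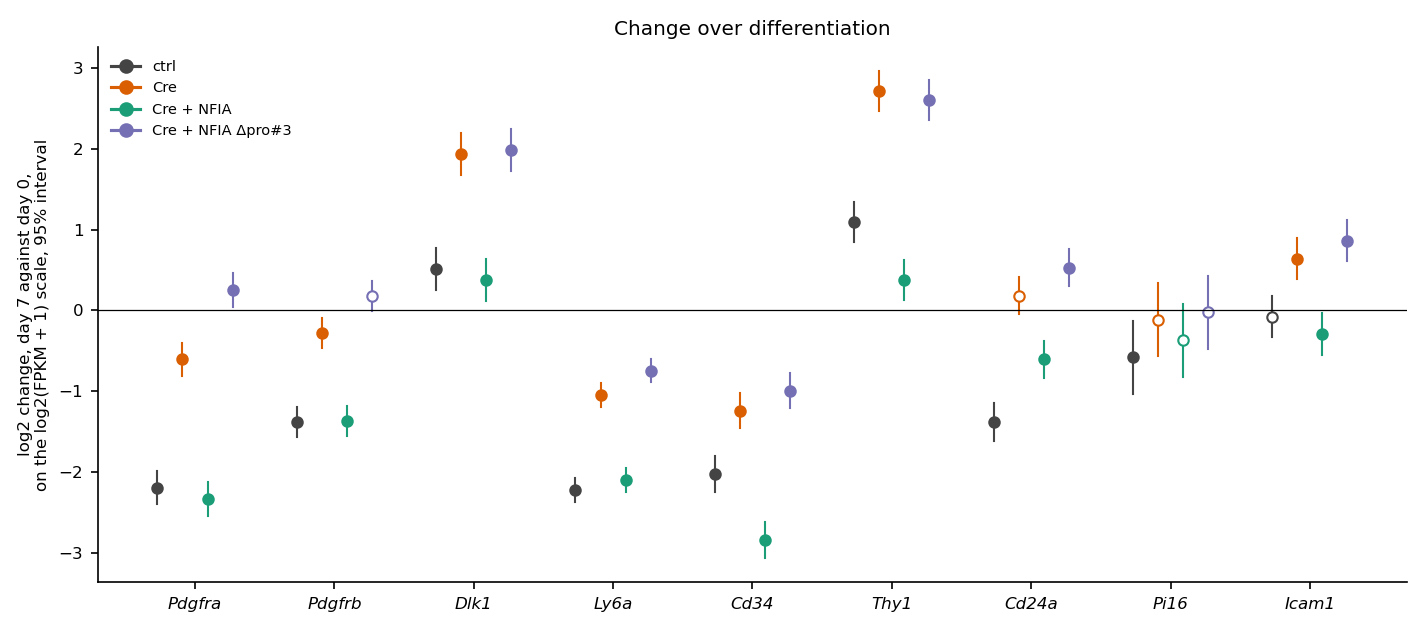
Log2 change of the 9 tested members from day 0 to day 7 on the log2(FPKM + 1) scale (vertical axis) in each cell type. Lines are 95% intervals from limma, filled circles passed at an adjusted p under 0.05 and open circles did not. The ctrl and Cre + NFIA values lie below those of Cre and Δpro#3 for each member, with the widest span for Pdgfra, from -2.33 in Cre + NFIA to 0.254 in Δpro#3.

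Whether the effect of a cell type differed between days was tested directly, as the day 7 difference minus the day 0 difference. For Cre against ctrl 8 of 9 members passed, all with a positive sign. Of all genes 49.2% passed, 29.7% as positive and 19.5% as negative. The members' values ran from 0.72 for Icam1 (SE 0.17, limma adjusted p = 0.00178) to 1.62 for Thy1 (SE 0.17, limma adjusted p = 2.33e-07). For Cre + NFIA against Cre 8 members passed, all negative, and Thy1 was again the extreme (log2 change -2.34, SE 0.17, limma adjusted p = 9.12e-10). Here 48.9% of all genes passed, 18.8% as positive and 30.1% as negative. For Δpro#3 against Cre 3 members passed, Pdgfra (log2 change 0.86, SE 0.14, limma adjusted p = 0.000264), Pdgfrb (log2 change 0.46, SE 0.13, limma adjusted p = 0.0156) and Ly6a (log2 change 0.30, SE 0.099, limma adjusted p = 0.0379). Here 18.2% of all genes passed, 7.8% as positive and 10.4% as negative. With median-of-ratios size factors the median of all genes moved by -0.10 in the first of these and by 0.11 in the second, and the share of positive values among calls went from 60.3% to 47.5% and from 38.5% to 51.6%. The same number of members, 8 and 8, passed with the same signs. In the third that share went from 42.9% to 53.4% under quantile normalization, where 3 members passed. With median-of-ratios size factors 2 passed, and Ly6a was lost (limma adjusted p = 0.0555). Of these 3 calls, Pdgfra alone held with each library left out, against Pdgfrb (without Cre 2 of day 7, limma adjusted p up to 0.0571) and Ly6a (kept in 15 of 24 such fits, limma adjusted p up to 0.111).

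Genes that work with the members, or are used beside them to mark stromal subsets, were read from lists chosen with earlier results of these data known, so their counts are descriptions. Their values are log2 changes on the log2(FPKM + 1) scale, and the median over all genes tested was 0.091 in Cre against ctrl and -0.057 in Cre + NFIA against Cre at day 7. In Cre + NFIA against Cre at day 0 that median was 0.019. The list counts stand beside 36.1% of all genes higher and 22.7% lower in Cre against ctrl at day 7. For Cre + NFIA against Cre these shares were 27.0% and 35.9% at day 7 and 14.7% and 12.9% at day 0. Of 71 changes of list genes given here, 0 turned their sign under median-of-ratios or quantile scaling, but 2 and 3 lost the call. Notch1 at day 0 was lost under both (limma adjusted p = 0.0606 and 0.0714), Ly6e in Cre + NFIA against Cre at day 7 under the first (0.264), and Fabp4 at day 7 under the second (0.519 in Cre against ctrl and 0.506 in Cre + NFIA against Cre). The PDGF ligands, which activate the PDGF receptors, had 3 of 4 genes tested. All 3 were higher in Cre than in ctrl at day 7, Pdgfd (log2 change 0.56, SE 0.13, limma adjusted p = 0.00369) and Pdgfa (log2 change 0.45, SE 0.12, limma adjusted p = 0.00836) most, and 2 were lower in Cre + NFIA than in Cre, Pdgfd (-0.67) and Pdgfa (-0.43). At day 0 Pdgfc alone passed in Cre + NFIA against Cre (log2 change 0.57, SE 0.11, limma adjusted p = 0.00328). The median of the tested ligand genes was 0.45 in Cre against ctrl and -0.43 in Cre + NFIA against Cre at day 7.

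Of 10 genes used beside Dpp4 and Pi16 for interstitial progenitors, 7 were tested. At day 7, in Cre against ctrl, 6 were higher and 0 lower (median 1.03), with Anxa3 (1.24) and Ly6c1 (1.18) in front. All 7 were lower in Cre + NFIA relative to Cre (median -1.19), led by Sema3c, a secreted semaphorin (-1.57), and Anxa3 (-1.50). At day 0 they were divided, with 2 higher in Cre + NFIA than in Cre, Fn1 (0.65) and Ly6c1 (0.28), and 3 lower, among them Dpt (-1.19) and Wnt2 (-1.09). Values of Ly6c1 are uncertain, since reads shared with its near-identical neighbour Ly6c2 were discarded.

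The 9 genes used beside Icam1 for committed preadipocytes were all tested, and they did not move as one. At day 7, in Cre against ctrl, 3 were higher, with the tetraspanin gene Cd9 (1.46) and the adhesion gene Vcam1 (1.09) in front, and 5 were lower, led by the fatty acid transporter gene Cd36 (-2.07) and the fatty acid binding protein gene Fabp4 (-1.90). With full-length NFIA, relative to Cre, 5 were higher, Cd36 (2.502) and Fabp4 (1.64) most, and 3 were lower, Vcam1 (-1.73) and Cd9 (-1.69) most. Cd36 and Fabp4 are also expressed in mature adipocytes. The median of this list was -1.21 in Cre against ctrl and 1.19 in Cre + NFIA against Cre at day 7. At day 0 Pparg, the master regulator of adipogenesis, was the 1 gene of this list higher in Cre + NFIA than in Cre (log2 change 0.91, SE 0.16, limma adjusted p = 0.0015), and 4 were lower, Vcam1 (-0.92) and Ggt5 (-0.64) most. Of the 5 genes linked to CD142-positive stromal cells 3 were tested. F3, which encodes CD142, or tissue factor, was lower in Cre + NFIA than in Cre at day 0 (log2 change -1.70, SE 0.059, limma adjusted p = 3.94e-08) and day 7 (log2 change -1.87, SE 0.078, limma adjusted p = 8.17e-09), where all 3 genes were lower, Mgp too (-1.51). F3 alone was higher in Cre than in ctrl at day 7 (0.77), and Gdf10 was higher in Cre + NFIA than in Cre at day 0 (1.06). The median of these genes was 0.20 in Cre against ctrl and -1.51 in Cre + NFIA against Cre at day 7.

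The 14 further stromal surface markers were all tested. The median of this list was 0.62 in Cre against ctrl and -0.68 in Cre + NFIA against Cre at day 7. At day 7, in Cre against ctrl, 9 were higher, Ncam1 (1.07) and the integrin gene Itga5 (0.97) most, and 4 lower, Mcam (-1.16) and Ngfr (-1.06) most. Relative to Cre, 4 were higher in Cre + NFIA, with Ngfr (1.91) and Mcam (1.47) in front, and 8 lower, with Cd248 (-1.25) and Ncam1 (-1.11) in front. At day 0, in Cre + NFIA against Cre, 5 were higher, Eng, which encodes endoglin (1.42), and Mcam (0.92) most, and 3 lower, Cd248 (-0.40) and Ncam1 (-0.28) most. Of the CD34 family Podxl2 was tested, and it was lower in Cre + NFIA than in Cre at day 0 (log2 change -1.29, SE 0.12, limma adjusted p = 2.13e-05), where Cd34 was higher, and at day 7 (-1.75). It was higher in Cre than in ctrl at day 7 (1.07).

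Of 6 further LY6 family genes 3 were tested. The median of those tested was 0.78 in Cre against ctrl and -0.24 in Cre + NFIA against Cre at day 7. At day 7 Ly6c1 (1.18) and Ly6e (0.78) were higher in Cre than in ctrl, as Ly6a was, and both were lower in Cre + NFIA than in Cre (-0.60 and -0.24). Ly6h went the other way, lower in Cre than in ctrl (log2 change -2.06, SE 0.21, limma adjusted p = 6.13e-06) and higher in Cre + NFIA than in Cre (1.999). At day 0, where Ly6a did not pass, Ly6c1 was higher (0.28) and Ly6e lower (-0.31) in Cre + NFIA than in Cre.

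Near Dlk1, 2 of 6 genes of its imprinted domain were tested. The median of the tested pair was 0.57 in Cre against ctrl and -1.14 in Cre + NFIA against Cre at day 7. Dio3, which encodes a deiodinase, was lower in Cre + NFIA than in Cre at day 0 (log2 change -1.42, SE 0.099, limma adjusted p = 3.33e-06) and day 7 (-1.53), as Dlk1 was. The noncoding gene Rian was lower at day 7 (-0.75). In Cre against ctrl at day 7 Rian (0.58) and Dio3 (0.57) were higher. Of 11 Notch receptor, ligand and target genes, 6 were tested. The median of the tested Notch genes was 0.54 in Cre against ctrl and -0.49 in Cre + NFIA against Cre at day 7. Notch2 (0.73) and Notch3 (0.66) led the 4 that were higher in Cre than in ctrl at day 7, and the ligand gene Jag1 was lower (-0.70). In Cre + NFIA against Cre 4 were lower, Notch3 (-1.13) and Notch2 (-0.97) most, and Jag1 was higher (0.71). At day 0 Hes1 (0.74) and Notch1 (0.23) were higher with full-length NFIA than in Cre, and 3 were lower, Jag1 (-0.57) and Notch3 (-0.43) most.

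Within the mature adipocyte list the largest falls in Cre against ctrl at day 7 were those of the adipokine genes Cfd (log2 change -2.71, SE 0.35, limma adjusted p = 4.29e-05) and Retn (-2.39). In Cre + NFIA against Cre the largest rises were Retn (2.92) and Dgat2, an enzyme of triglyceride synthesis (2.58). At day 0, 4 of the 9 were higher with full-length NFIA than in Cre alone, with the lipid droplet gene Plin4 (0.94) and the lipase gene Pnpla2 (0.47) in front. The median of the adipocyte list was -1.79 in Cre against ctrl and 1.77 in Cre + NFIA against Cre at day 7.

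The members fell into more than 1 pattern over the 24 libraries. Pearson's r of log2(FPKM + 1), given as a description over libraries that share cell type and day, was 0.85 for Pdgfra with Ly6a, 0.84 for Pdgfrb with Ly6a, 0.83 for Ly6a with Cd34 and 0.87 for Pdgfrb with Cd24a. Over both days together, Thy1 was opposed to Ly6a (-0.57) and Cd34 (-0.54) and went with Icam1 (0.79) and Dlk1 (0.60). At day 7 alone, Thy1, Ly6a and Cd34 were each higher in Cre than in ctrl and lower in Cre + NFIA than in Cre. Many other genes followed most of these members more closely. By r among all genes tested, Ly6a ranked 797 for Pdgfra and 1573 for Pdgfrb. Cd34 ranked 2083 for Ly6a, Cd24a 1214 for Pdgfrb and Dlk1 1311 for Thy1. Icam1 ranked 208 for Thy1, and Thy1 ranked 15 for Icam1. Among all genes tested, the pattern most like that of Pdgfrb was that of Plat (r = 0.993), the plasminogen activator gene, and the genes next to it were Dnm1 (0.988) and Epb41l3 (0.987). Ly6a was most like Tmem173 (0.990), which encodes the adaptor STING, then Pml (0.989) and Mpp2 (0.987). For Pdgfra these were Emb (0.965), Creb5 (0.963) and Sned1 (0.963), and for Dlk1 they were Kif1a (0.980), Net1 (0.954) and Notch3 (0.953). Cd34 was most like Cxadr (0.973), Nhsl1 (0.973) and Ccl9 (0.963). For Thy1 they included Crip1 (0.951) and Capns1 (0.950), and for Cd24a they were Anxa1 (0.963), Sumf1 (0.953) and Zfp346 (0.948). The low genes Pi16 and Icam1 had weaker likeness, with 9930012K11Rik (0.856) and Clip2 (0.838) for Pi16 and Eps8 (0.856), Cryab (0.848) and Ltbp2 (0.847) for Icam1.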

How the data were processed

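RNA-seq was measured in 24 libraries of 8 groups, grouped by sample title. The authors used a stranded mRNA kit, aligned to mm9 with STAR 2.5.3a, discarded reads with more than 1 alignment, and took the matching-strand gene counts to compute FPKM, the deposited unit. Because the unit was FPKM, no count model was the main test. All values (100%) were whole multiples of 1 read within 0.05, so reads were recovered. They gave totals of 7.73 to 14.62 M (M, 1000000), and 3 reads, 0.205 to 0.388 per M, were taken as the floor. Floors cover counting error only.

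Genes at 1 FPKM or more in 3 libraries or more (12640) entered the fit, on the log2(FPKM + 1) scale, with limma 3.58.1 (R 4.3.3) with a trend and two-sided tests. The fit held all 4 cell types of a day (12 libraries) for differences within that day, and 24 libraries otherwise. P-values were adjusted by Benjamini-Hochberg over all genes tested, with 0.05 as the threshold. The code was tested on simulated data, in which only genes with more reads than Pi16 or Icam1 were changed, so it does not cover genes that low. Of the 10 members, 9 were tested. The members and lists were chosen with earlier results of these data known. All members are named, with up to 2 rising and 2 falling genes of each list in the comparisons described and the 3 genes most correlated with each member, of which 1 for Thy1 and 1 for Pi16 are not reported here. Chromosome positions are from GENCODE vM1 on NCBIM37, counted from 1, and promoters from RefSeq on GRCm38.p6.

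In all 24 pairs of libraries of 1 group the counts differed beyond sampling noise (chi-square of 2.21 to 15.91 per degree of freedom), so each was used as a library of its own. The alternatives changed the pseudocount (0.1 or 5), the filter (none, or a mean of 5 FPKM), the scaling (median-of-ratios or quantile), the libraries in the model (compared groups alone, or all 24), the replicate block, the trend, the input (limma voom on recovered reads), the threshold (3-fold), and left out each library in turn.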

Additional observations from a re-analysis of the deposited data

Results flagged for a closer look

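These values are differences between day 7 and day 0 of a difference between cell types, on the log2(FPKM + 1) scale, each past the limma test of that difference itself. For Cre against ctrl they were 1.59 for Pdgfra, 1.11 for Pdgfrb, 1.42 for Dlk1, 1.17 for Ly6a, 0.78 for Cd34, 1.62 for Thy1, 1.56 for Cd24a and 0.72 for Icam1. For Pdgfra and Thy1 the day 0 and day 7 differences had opposite signs and both passed (-0.86 and 0.72 for Pdgfra, -0.87 and 0.75 for Thy1).

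For Cre + NFIA against Cre they were -1.73 for Pdgfra, -1.10 for Pdgfrb, -1.56 for Dlk1, -1.05 for Ly6a, -1.61 for Cd34, -2.34 for Thy1, -0.79 for Cd24a and -0.93 for Icam1. Here Pdgfra, Cd34, Thy1 and Icam1 were higher in Cre + NFIA at day 0 and lower at day 7, and all 8 of these day-specific calls passed, although that of Icam1 at day 7 was lost with median-of-ratios size factors or quantile normalization. For Cre + NFIA Δpro#3 against Cre they were 0.86 for Pdgfra, 0.46 for Pdgfrb and 0.30 for Ly6a. The comparisons share the Cre libraries.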

How the results depend on the processing

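Of 107 changes of members past the test, 90 kept their call and direction in every fit that tested the gene. These fits were the alternatives (the 3-fold threshold apart) and those with 1 library left out. The other 17 lost the call under at least 1, and 0 reversed. The filter at a mean of 5 FPKM removed Dlk1, Pi16 and Icam1, so their calls could not be lost there. Requiring also a change of at least 3-fold on the log2(FPKM + 1) scale lowered the number of members in every comparison. The day 0 counts were 0 in Cre against ctrl, 1 in Cre + NFIA against Cre, 0 in Δpro#3 against Cre, 1 in Δpro#3 against Cre + NFIA and 0 in Cre + NFIA against ctrl, and at day 7 they were 1, 2, 0, 2 and 0 in the same order. For day 7 against day 0 they were 3 in ctrl, 2 in Cre, 3 in Cre + NFIA and 2 in Δpro#3, and for the day-dependent differences 2, 3 and 0. Of the 12640 genes tested, 3, 68, 18, 24 and 55 were left at day 0 in that order of comparisons. At day 7 these were 191, 459, 79, 875 and 38 genes. For day 7 against day 0 they were 1075, 345, 1148 and 184 genes, and for the day-dependent differences 194, 361 and 97. Δpro#3 against Cre at day 7 was the least stable comparison, with 1 member from the compared groups alone and 5 from all 24 libraries, instead of 3. Cre + NFIA against ctrl at day 7 fell to 3 with a mean FPKM of at least 5, which removes low members. With 1 library left out, Δpro#3 against Cre gave 2 to 5 members at day 0 (2 without Cre replicate 2 or Δpro#3 replicate 1) and 1 to 4 at day 7 (1 without Cre replicate 1, Cre replicate 2 or Δpro#3 replicate 1), and its day-dependent difference gave 1 to 4 (1 without the day 7 Cre replicate 2).

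What a shared replicate number stands for is not stated in the sources, so the numbers were not taken as pairs. Looked at afterwards, same-numbered libraries did not deviate together (correlations of -0.27 to 0.20). The replicate block moved no count of members by over 1.5 times, and 2 calls were lost with it, Pi16 in Cre + NFIA against ctrl at day 7 and Ly6a in the day-dependent difference of Δpro#3 against Cre. Depth limits Pi16, Icam1 and Dpp4, and also Dlk1 in the day 0 libraries with either NFIA form (26 to 45 reads). Calls on voom of recovered reads numbered 7443 genes in Cre against ctrl and 8003 in Cre + NFIA against Cre at day 7, with 8 and 9 members.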
